A study of Mus musculus with 10 samples.

Results

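The genes that load, fire and move DNA replication forks were measured by bulk RNA sequencing in nonclassical monocytes of mouse bone marrow. The set held 48 genes chosen by symbol for their role at origins and forks, with earlier results of these data known. All 48 were found in the count table of 52636 Ensembl genes through the GRCm38 annotation. The WT group was LAIR1+/+ and the LAIR1KO group was LAIR1-/-, with 5 libraries each, from untreated animals kept in a pathogen-free facility. LAIR1 is an inhibitory collagen receptor of leukocytes. Age, sex and the way the deletion was made are not in the labels. Whether 1 animal gave 1 library is not stated either, and the p-values then cover spread that may be technical. RNA came from small numbers of sorted cells and was sequenced by a low-input method.

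Total counts ran from 12106209 to 15356924 per library. Lair1 averaged 374 CPM (counts scaled to library size, with TMM factors) in WT and 0.226 CPM in LAIR1KO, so each library matched its genotype label (two-sided exact permutation p = 0.00794, the smallest that 5 against 5 can give). All 12 markers of nonclassical monocytes were detected, and their summed level was 14510 to 18000 CPM in WT and 11680 to 15980 CPM in LAIR1KO. On the first principal component (28.1% of the variance) the genotypes separated, with LAIR1KO replicates 4 and 5 at the outer end (45.3 and 44.1, other LAIR1KO libraries 10.7 to 29.7, WT -41.7 to -17.1).

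DNA replication begins where the origin recognition complex marks DNA and, with CDC6 and CDT1, loads the ring-shaped MCM2-7 helicase. The kinase CDC7 with its activator DBF4 then allows CDC45 and the GINS complex to join the ring. Polymerases alpha, delta and epsilon copy the opened strands behind it, and PCNA is the sliding clamp of the fork. Transcription of many of these genes rises as a cell enters S phase through E2F transcription factors, and the transcripts are scarce in resting cells. Nonclassical monocytes are regarded as largely non-dividing cells that derive from cycling marrow precursors.

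Promoter sequence is shown first because replication genes are known E2F targets. RefSeq windows (GRCm38.p6, 250 bases before to 50 after a transcript start) were available for 40 of the 48 genes, as 52 windows. The words TTTCGCGC, TTTGGCGC, TTTCCCGC and TTTGCCGC were searched on both strands, and overlapping matches were counted. At least 1 of them stood in 17 of the 52 windows (32.7%), against 2.26% of all 32851 windows. CCAAT, the NF-Y core, stood in 55.8% and 37.4% of the same windows. TTTGAA, the core of the cell cycle homology region, stood in 17.3% and 17.9%. The windows were not matched for base composition, and some genes had more than 1. Counted by gene, E2F-type words stood in 42.5% of the 40 members and 2.6% of all genes. A match is a description of the letters, not a binding site. The 160 bases before the start are printed here, 5′ to 3′ on the strand of the gene, with the E2F-type words in capitals. They are Mcm6 (chr1:128359706-128359865, minus strand), Mcm5 (chr8:75109349-75109508, plus), Cdc6 (chr11:98907991-98908150, plus), Pola1 (chrX:93632156-93632315, minus), and, as genes with large differences and no such word in the window, Mcm2 (chr6:88898781-88898940, minus) and Chaf1b (chr16:93883741-93883900, plus).
Mcm6: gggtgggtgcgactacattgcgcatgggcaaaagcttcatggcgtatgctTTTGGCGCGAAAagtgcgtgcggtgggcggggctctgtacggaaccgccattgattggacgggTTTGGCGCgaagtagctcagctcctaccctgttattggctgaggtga
Mcm5: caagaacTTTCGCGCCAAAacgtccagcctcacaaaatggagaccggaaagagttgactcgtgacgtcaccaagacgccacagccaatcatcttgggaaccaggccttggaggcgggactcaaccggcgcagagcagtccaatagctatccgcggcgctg
Cdc6: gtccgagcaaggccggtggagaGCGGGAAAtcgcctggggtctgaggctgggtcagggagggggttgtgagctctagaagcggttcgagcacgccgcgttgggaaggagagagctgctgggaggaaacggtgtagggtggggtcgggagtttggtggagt
Pola1: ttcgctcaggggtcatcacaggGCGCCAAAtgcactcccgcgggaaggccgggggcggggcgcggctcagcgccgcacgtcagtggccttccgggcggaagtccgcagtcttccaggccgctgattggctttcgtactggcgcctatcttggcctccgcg
Mcm2: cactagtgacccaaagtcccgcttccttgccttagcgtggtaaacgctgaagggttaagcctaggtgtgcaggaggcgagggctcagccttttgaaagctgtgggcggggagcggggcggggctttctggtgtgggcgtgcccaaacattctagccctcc
Chaf1b: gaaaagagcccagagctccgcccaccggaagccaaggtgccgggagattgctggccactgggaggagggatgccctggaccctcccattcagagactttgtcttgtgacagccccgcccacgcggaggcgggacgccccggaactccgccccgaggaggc
In Mcm6 and Mcm5 a pair of words overlaps in a run of 12 bases, and the run in Mcm5 is the reverse complement of the run in Mcm6. This run stood in the windows of 4 genes in all, of which the other two are Msh3 and Mycn. The RefSeq start used for Cdc6 lies downstream of the GENCODE start at chr11:98907801, so its printed bases fall inside the GENCODE gene.

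The comparison of LAIR1KO with WT asks how transcripts of these cells differ without LAIR1. Replication genes were higher in LAIR1KO: 31 of 48 passed the threshold (edgeR quasi-likelihood test, Benjamini-Hochberg adjusted p under 0.05 over all genes tested) as higher and 0 as lower, which is 64.6% against 5.11% of the 13469 genes tested (6.79% in either direction). With DESeq2 34 were higher and with limma voom 29, and no member had a lower value at an unadjusted p under 0.05 in edgeR or an adjusted one in the other two. The median log2 fold change (LAIR1KO minus WT) of the 48 genes was 0.66, against 0.00 over all genes, and 46 of the 48 were above 0, as were 49.7% of all genes. Every LAIR1KO library exceeded every WT library for 26 members, a pattern shown by 5.61% of all genes. Summed over the set, the WT level was 2069 ± 149 CPM and the LAIR1KO level 3196 ± 470.2 CPM (SD, n = 5), with the highest WT library at 2270 and the lowest LAIR1KO library at 2662 CPM. In bulk RNA a larger share of cells with these transcripts and more transcript per cell cannot be told apart.

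**Figure D1:**
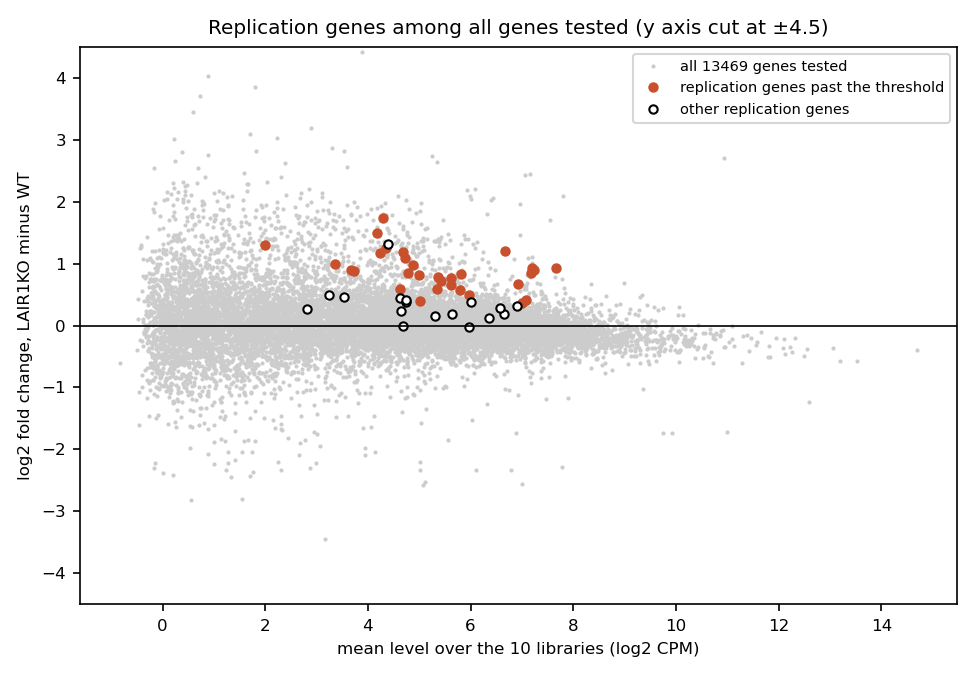
Each point is 1 of the 13469 genes tested, with its mean level (log2 CPM) on the x axis and its log2 fold change, LAIR1KO minus WT, on the y axis. The 31 replication genes past the threshold all lie above 0, and 46 of the 48 replication genes have values above 0.

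The libraries of LAIR1KO differed among themselves. LAIR1KO replicate 5 had the highest value of all 10 libraries for 32 of the 48 genes and LAIR1KO replicate 4 for 6. LAIR1KO replicate 3 was the lowest of its group for 29. Relative to the WT mean the median gene stood 0.37 higher on the log2 scale in LAIR1KO replicate 3, 0.65 in replicate 1, 0.70 in replicate 2, 0.73 in replicate 4 and 0.86 in replicate 5. In WT these medians ran from -0.14 in replicate 3 to 0.11 in replicate 5, and the lowest value of each of the 48 genes was in a WT library. How often each library was highest or lowest over all genes tested was not counted. LAIR1KO replicates 4 and 5 were also outermost on the first principal component, which covers all genes tested. The number of members called depended on single libraries. It was 16 without LAIR1KO replicate 4, 18 without LAIR1KO replicate 5, 17 without WT replicate 3 and 20 without WT replicate 1. Over all genes 422, 446, 455 and 487 were called higher in the same fits, against 688 with all libraries. Without LAIR1KO replicates 4 and 5 together it was 11, when 1.68% of all genes were called higher, and without WT replicates 1 and 4 together it was 10, against 1.89%. Mcm2, Mcm3, Mcm5, Mcm7, Prim1, Pold1, Rfc4, Rfc5 and Chaf1b passed in all 20 alternative fits. The share of all genes called that passed in every fit was not counted.

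**Figure D2:**
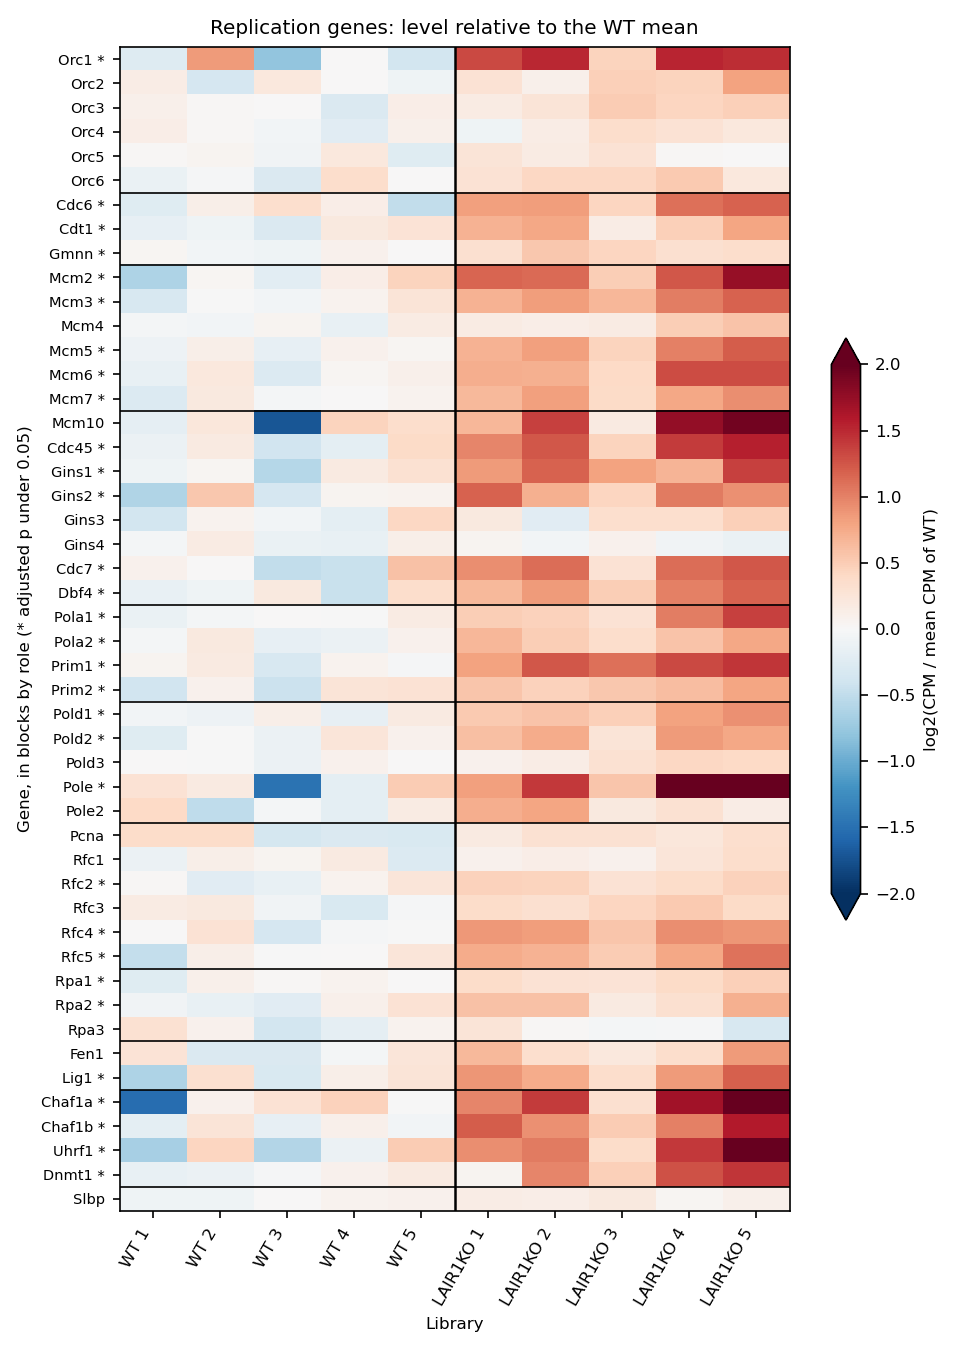
Rows are the 48 genes in blocks by role, columns are the 10 libraries, and color is log2 of the CPM over the mean CPM of WT, with an asterisk for genes past the threshold. The LAIR1KO columns are mostly above the WT mean, most of all replicate 5 (highest for 32 genes), and replicate 3 is the palest of them.

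Of the 6 subunits of the origin recognition complex 1 rose (median log2 fold change 0.37). That was Orc1, the ATPase subunit whose abundance follows the cell cycle, and the gene with the lowest level per length of the whole set in WT (0.631 CPM per kb of exon). Orc1 stood at 1.84, 3.96, 1.26, 2.21 and 1.70 CPM in WT replicates 1 to 5 and at 5.496, 6.25, 2.98, 6.31 and 6.09 CPM in LAIR1KO. Only LAIR1KO replicate 3 fell within the WT range. Its log2 fold change was 1.31 ± 0.33 (SE; adjusted p = 0.0306), and when single libraries were left out it passed in 2 of 10 fits. The subunits Orc2 to Orc6, of which Orc2 to Orc5 form the stable core, had log2 fold changes between 0.15 (Orc5) and 0.44 (Orc2), with adjusted p from 0.0612 (Orc3) to 0.487. Orc3 nevertheless separated the groups, with 45.7 to 61.6 CPM in WT and 63.0 to 79.4 CPM in LAIR1KO. Exons of Orc2 overlapped those of Nif3l1 on the opposite strand over 29.8% of their length, and the strand setting of the counts is not given.

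The loading factors and their inhibitor all rose. Cdc6, the ATPase that helps open the ring for loading, stood at 6.20 to 11.1 CPM in WT and at 11.8 to 19.9 CPM in LAIR1KO, with no overlap (log2 fold change 0.89 ± 0.20, adjusted p = 0.0157). Cdt1, which carries the ring to the origin, had 0.59 ± 0.15 (adjusted p = 0.0326), and LAIR1KO replicate 3 at 35.8 CPM lay within the WT range of 26.4 to 38.7 CPM. Gmnn encodes geminin, which binds CDT1 and prevents a further round of loading. Its WT libraries differed least of the whole set (26.1 to 29.4 CPM, coefficient of variation 4.74%), and its LAIR1KO libraries stood at 34.4 to 40.3 CPM (0.39 ± 0.10, adjusted p = 0.0344). Leaving out 1 library kept the call of Cdc6 in 10 of 10 fits, that of Cdt1 in 3 and that of Gmnn in 1. The ratio of Cdt1 to Gmnn was 1.16 ± 0.16 in WT and 1.34 ± 0.24 in LAIR1KO (SD, n = 5), and its ranges overlapped.

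Of the 6 subunits of the helicase ring 5 rose, and their summed level went from 548 ± 57.3 to 978 ± 203 CPM (SD, n = 5). Mcm3 stood at 84.7, 105, 101, 110.3 and 126 CPM in WT replicates 1 to 5 and at 171, 188, 167, 214 and 237 CPM in LAIR1KO. The lowest LAIR1KO library lay well above the highest WT library (log2 fold change 0.89 ± 0.13, adjusted p = 0.00161). Mcm5 stood at 96.1, 111, 91.8, 109 and 106 CPM in WT and at 166, 180.4, 139, 206 and 238 CPM in LAIR1KO (0.86 ± 0.13, adjusted p = 0.00230). For Mcm6 the WT libraries held 127, 163, 116, 144 and 151 CPM and the LAIR1KO libraries 231, 229, 185, 345 and 348 CPM. Replicates 4 and 5 stood apart from the other LAIR1KO libraries for this gene (0.93 ± 0.17, adjusted p = 0.00632), and without both of them the log2 fold change was 0.62 and still passed (adjusted p = 0.0261). Without WT replicates 1 and 4 it was 0.90 (adjusted p = 0.0589). Mcm2 had the widest WT spread of the ring relative to its mean (coefficient of variation 26.5%), with 40.1, 63.9, 53.2, 67.9 and 84.0 CPM, against 139, 136, 86.8, 146 and 206 CPM in LAIR1KO. Its difference was the largest of the ring (1.21 ± 0.22, adjusted p = 0.00612), and LAIR1KO replicate 3 stood only just above WT replicate 5.

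Mcm7 passed the threshold and Mcm4 did not. Mcm7 stood at 26.8, 37.0, 31.7, 32.8 and 34.0 CPM in WT and at 50.9, 57.5, 42.4, 55.5 and 61.8 CPM in LAIR1KO, without overlap (0.72 ± 0.13, adjusted p = 0.00491). Of the words of 31 bases in its longest transcript 37.6% also stood in the processed pseudogene Gm5487, which is not in the count table. How reads that fit both were treated is not given, so the level of Mcm7 is uncertain. Mcm4 stood at 103, 102, 111, 95.7 and 119 CPM in WT and at 119, 116, 119, 149 and 158 CPM in LAIR1KO. Replicates 1 to 3 of LAIR1KO lay at the upper edge of WT, and replicates 4 and 5 lay above it (0.32 ± 0.11, adjusted p = 0.112). Mcm2 and Mcm4 had the largest and the smallest difference of the ring. Their ratio, which restates these values, was 0.390 to 0.709 in WT and 0.732 to 1.31 in LAIR1KO. Of the summed CPM per kb of the ring Mcm4 took 20.3% to 25.6% in WT and 15.4% to 19.0% in LAIR1KO, whereas the shares of the other 5 subunits overlapped between the groups. On this scale Mcm3, Mcm4, Mcm5 and Mcm6 had WT means of 28.1, 29.6, 25.7 and 30.0 CPM per kb, and Mcm2 and Mcm7 had 8.89 and 7.33. The length used was that of all annotated exons joined. For Mcm2 this was 6956 bases against 3494 in its longest transcript, and for Mcm7 4426 against 2962. For Mcm4 both were 3589, so the low levels per kb of Mcm2 and Mcm7 depend in part on the length used.

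**Figure D3:**
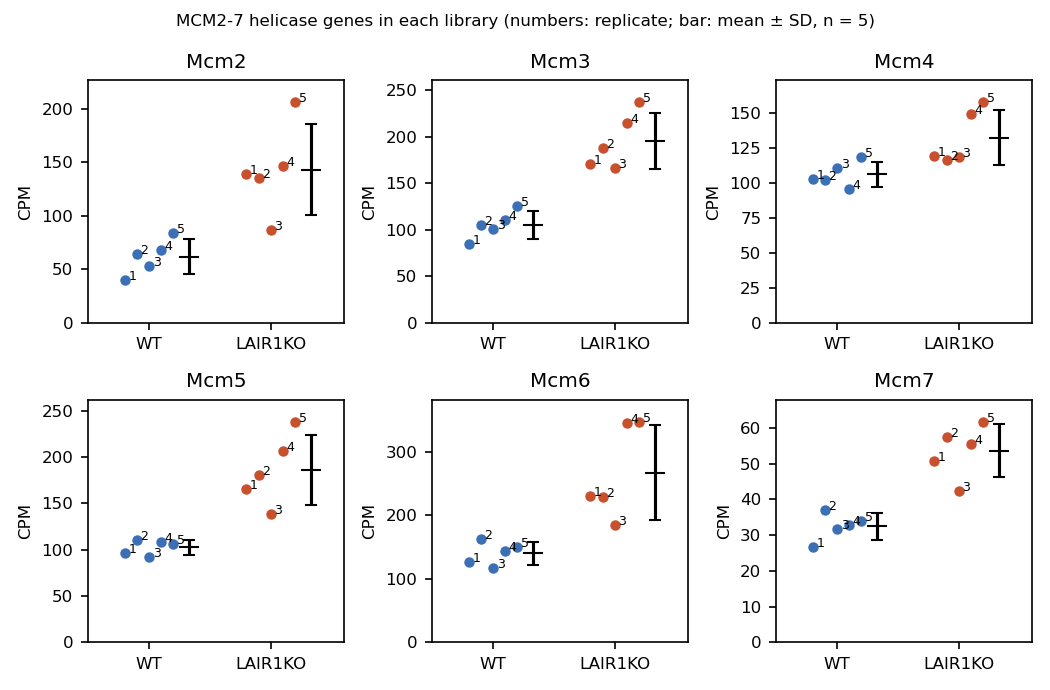
CPM of the 6 MCM2-7 genes in each library, with the replicate number beside each point and a bar for mean ± SD (n = 5) to the right of each group. For Mcm2, Mcm3, Mcm5, Mcm6 and Mcm7 all LAIR1KO points lie above all WT points, and for Mcm4 LAIR1KO replicates 1 to 3 (116 to 119 CPM) reach the top of the WT range.

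Among the 8 genes of helicase activation 5 rose (median 0.93). Cdc45, the helicase subunit that joins at firing, stood at 10.6, 12.96 and 15.03 CPM in WT replicates 1, 2 and 5, at 8.85 CPM in replicate 3 with replicate 4 between it and replicate 1, and at 22.6, 27.3, 15.6, 30.1 and 33.9 CPM in LAIR1KO. The groups did not overlap, although LAIR1KO replicate 3 came close to WT replicate 5 (1.17 ± 0.22, adjusted p = 0.00622). The kinase Cdc7 (0.98 ± 0.22, adjusted p = 0.0198) and its activator Dbf4 (0.86 ± 0.18, adjusted p = 0.0112) both rose. Mcm10, a scaffold needed for strand opening, did not pass, with 3.64 to 16.2 CPM in WT and 13.5 to 45.4 CPM in LAIR1KO (1.32 ± 0.39, adjusted p = 0.0607). It passed in 5 of the 20 alternative fits, among them DESeq2.

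The GINS complex, whose 4 subunits form the helicase together with CDC45 and the ring, was uneven. Gins1 (1.002 ± 0.20, adjusted p = 0.00969) and Gins2 (0.88 ± 0.22, adjusted p = 0.0298) rose, and Gins2 passed in 3 of the 10 leave-one-out fits. Exons of Gins2 overlapped those of Gse1 on the opposite strand over 67.3% of their length, and Gse1 had a mean of 151 counts against 182. Gins3 had 0.24 ± 0.17 (adjusted p = 0.452). Gins4 stood at 61.6, 71.0, 57.7, 57.2 and 68.5 CPM in WT and at 66.0, 60.6, 67.4, 60.4 and 57.9 CPM in LAIR1KO, so that the groups covered the same range (-0.02 ± 0.10, adjusted p = 0.949). Gins4 also had the highest WT level per length of all 48 genes, 46.9 CPM per kb against 4.44 for Gins1. The ratio of Gins1 to Gins4 was 0.107 ± 0.0211 in WT and 0.218 ± 0.0559 in LAIR1KO (SD, n = 5). Its highest WT value of 0.133 lay below its lowest LAIR1KO value of 0.174. These subunits had the largest and the smallest difference of the complex, so the ratio restates their separate values.

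Polymerase alpha with primase, which starts each new strand with a short RNA and DNA primer, rose as a whole: all 4 subunits passed and none overlapped between the groups. Prim1, the catalytic primase subunit, had the smallest p-value of the 48 genes. It stood at 16.2, 17.6, 12.4, 16.4 and 15.3 CPM in WT and at 27.4, 36.7, 33.5, 38.7 and 41.9 CPM in LAIR1KO. Here LAIR1KO replicate 3 was not the lowest of its group (1.19 ± 0.15, adjusted p = 6.61e-04). Pola2, the regulatory subunit, stood at 43.3, 51.1, 39.9, 41.2 and 47.6 CPM in WT and at 70.9, 62.5, 56.8, 66.6 and 75.9 CPM in LAIR1KO (0.58 ± 0.11, adjusted p = 0.00800). The polymerase subunit Pola1 (0.78 ± 0.19, adjusted p = 0.0252) reached 61.4 and 78.2 CPM in LAIR1KO replicates 4 and 5, against 37.0 to 42.8 in the other three, and passed in 5 of the 10 leave-one-out fits. Prim2, the large primase subunit, had 0.60 ± 0.16 (adjusted p = 0.0438) and passed in 2 of the 10 leave-one-out fits.

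Polymerases delta and epsilon copy the lagging and the leading strand. Pold1, the catalytic subunit of delta, stood at 90.9, 87.5, 102, 83.8 and 107 CPM in WT and at 135, 139.7, 131, 165 and 177 CPM in LAIR1KO. The groups were well separated (0.67 ± 0.11, adjusted p = 0.00372). Pold2, its scaffold subunit, rose to a like extent (0.66 ± 0.13, adjusted p = 0.00945), and Pold3 had 0.28 ± 0.09 (adjusted p = 0.0982) with 79.1 to 90.8 CPM in WT and 90.9 to 114 CPM in LAIR1KO. Pole, the catalytic subunit of epsilon, had the largest difference of the set (1.74 ± 0.42, adjusted p = 0.0254) and the widest LAIR1KO spread relative to the mean (coefficient of variation 60.4%). It stood at 10.9, 10.1, 3.20, 7.79 and 12.7 CPM in WT and at 15.8, 23.9, 13.1, 41.2 and 55.6 CPM in LAIR1KO. WT replicate 3 was low, and LAIR1KO replicates 4 and 5 were high. The log2 fold change of Pole was 0.98 without those 2 LAIR1KO libraries, and it no longer passed. It also missed the threshold in limma voom, without WT replicate 2 or 4, and without LAIR1KO replicate 4 or 5 alone (adjusted p 0.0532 to 0.0674 in these 5 fits). Without WT replicates 1 and 4 together Pole missed it as well (adjusted p = 0.118). Pole2, the second subunit of epsilon, had 0.46 ± 0.20 (adjusted p = 0.207). The ratio of Pole to Pole2 was 0.339 to 1.48 in WT and 0.99 to 5.19 in LAIR1KO, and its ranges overlapped.

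The clamp and its loader were divided. Of the 5 loader subunits, which open the clamp onto primed DNA, Rfc2, Rfc4 and Rfc5 rose. Rfc4 stood at 23.2, 27.9, 18.3, 22.7 and 22.8 CPM in WT and at 41.8, 41.0, 33.7, 43.8 and 42.2 CPM in LAIR1KO (0.82 ± 0.13, adjusted p = 0.00280). Rfc5 stood at 26.0, 39.4, 36.0, 36.4 and 42.9 CPM in WT and at 60.6, 58.4, 51.6, 62.0 and 77.0 CPM in LAIR1KO (0.78 ± 0.15, adjusted p = 0.00685). For both genes the groups lay apart. Rfc2 had a smaller difference (0.41 ± 0.10, adjusted p = 0.0281) and passed in 3 of the 10 leave-one-out fits. Rfc3 (0.40 ± 0.12, adjusted p = 0.0692) and Rfc1, the large subunit (0.18 ± 0.11, adjusted p = 0.334), did not pass.

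Pcna, the sliding clamp itself, was counted at 4.91 to 8.08 CPM in WT and 7.03 to 7.90 CPM in LAIR1KO (0.27 ± 0.20, adjusted p = 0.469). Its values are uncertain, because 38.0% of the words of 31 bases in its longest transcript also stood in the processed pseudogene Pcna-ps2. That copy had a mean of 43.6 counts against 94.0 for Pcna itself. How reads with more than 1 possible origin were counted is not given in the sources used here. Uhrf1, of which 26.5% of such words stood in Gm5648, shares this limit. To a smaller extent so does Rfc5, with 9.54% in the processed pseudogene Gm12870 (115 counts on average against 680). Apart from these genes and Mcm7, the largest share with any 1 other gene was 9.22%, in Cdc6.

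Of the 3 single-strand binding genes 2 rose (median 0.36), and of the 2 genes of fragment maturation 1 rose (median 0.66). Replication protein A coats the opened strands, and its subunits Rpa1 (0.36 ± 0.09, adjusted p = 0.0292) and Rpa2 (0.49 ± 0.13, adjusted p = 0.0393) rose, but passed in only 3 and 2 of the 10 leave-one-out fits. Rpa3, the smallest subunit, stood at 19.8 to 31.4 CPM in WT and 20.4 to 30.6 CPM in LAIR1KO (-0.00 ± 0.15, adjusted p = 0.996). Lig1, the ligase that seals Okazaki fragments, rose from 40.6 ± 10.5 to 72.0 ± 14.7 CPM (SD, n = 5; 0.83 ± 0.19, adjusted p = 0.0206). Fen1, the nuclease that trims the same fragments, was at 7.72 ± 1.45 and 10.9 ± 2.06 CPM (0.50 ± 0.19, adjusted p = 0.142). Its exons overlapped the antisense gene Gm10143 over 78.8% of their length, with 20.4 counts on average against 128.

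All 4 genes that rebuild chromatin and copy DNA methylation behind the fork rose, with the highest median of the role groups (1.17). The chromatin assembly factor subunit Chaf1b stood at 14.6, 19.9, 14.9, 17.9 and 16.1 CPM in WT and at 38.7, 31.5, 23.9, 33.7 and 49.99 CPM in LAIR1KO (1.09 ± 0.18, adjusted p = 0.00393). Its groups did not overlap, whereas in each of the other three genes 1 LAIR1KO library lay within the WT range. Chaf1a, the large subunit, had 1.49 ± 0.38 (adjusted p = 0.0319; not called by limma voom), with 11.7 CPM in LAIR1KO replicate 3 and 47.2 CPM in replicate 5. Its exons overlapped Ubxn6 on the opposite strand over 52.5% of their length, with 725 counts against 249. Uhrf1, which recognises hemimethylated DNA, had 1.25 ± 0.31 (adjusted p = 0.0284). The maintenance methyltransferase Dnmt1 stood at 91.8, 93.3, 99.7, 107 and 115 CPM in WT and at 105, 199.5, 141, 244 and 273 CPM in LAIR1KO. LAIR1KO replicate 1 was inside the WT range and the other LAIR1KO libraries above it (0.93 ± 0.21, adjusted p = 0.0206). With single libraries left out Chaf1b passed in 10 of 10 fits, Dnmt1 in 6, Uhrf1 in 5 and Chaf1a in 4. Slbp, which binds the stem-loop of histone messengers, was at 73.7 to 83.6 CPM in WT and 80.8 to 89.97 CPM in LAIR1KO (0.12 ± 0.08, adjusted p = 0.422).

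**Figure D4:**
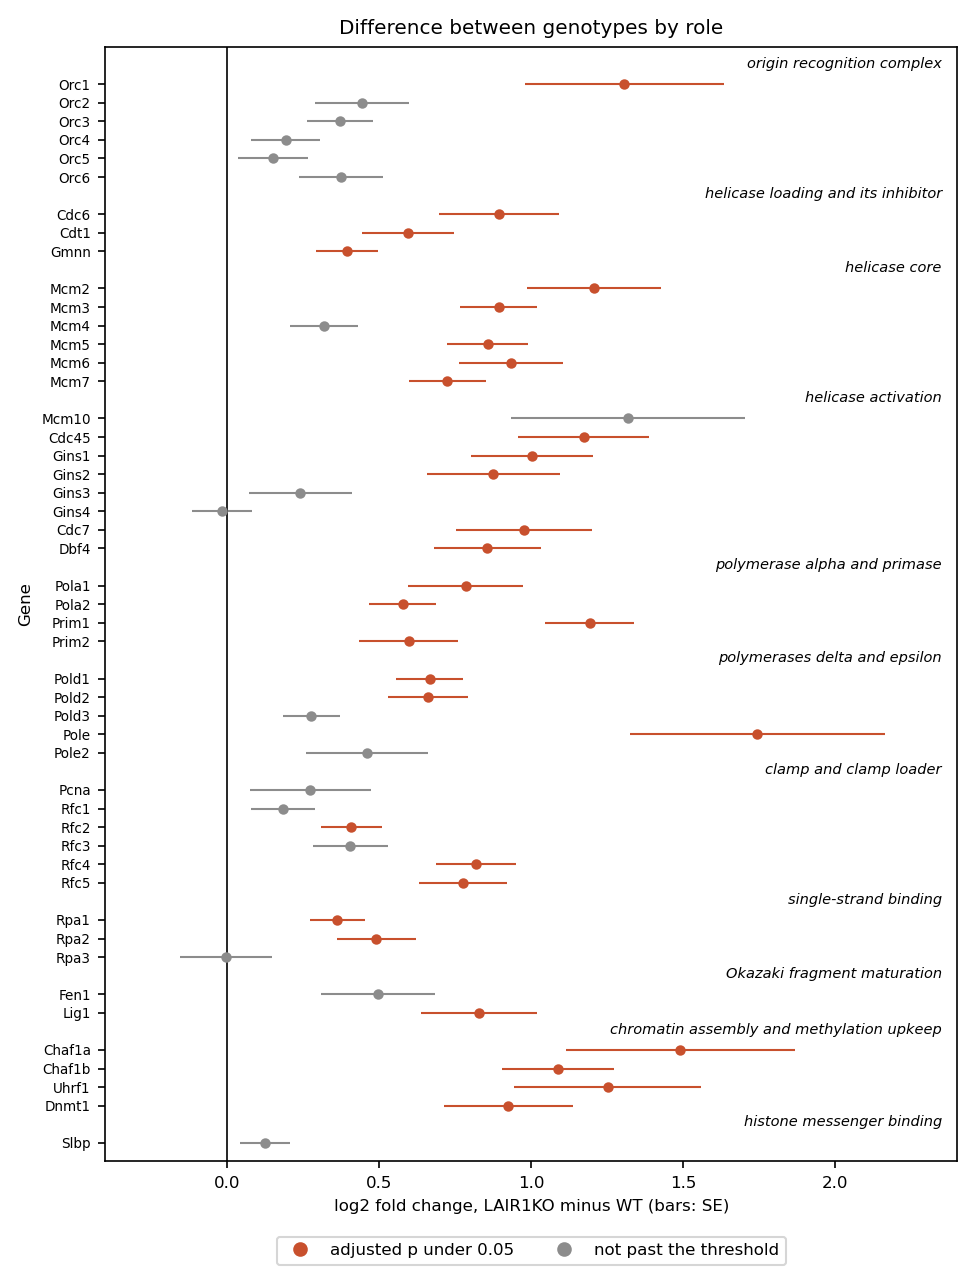
Log2 fold change (LAIR1KO minus WT) with its SE for each of the 48 genes, grouped by role, in orange where the adjusted p was under 0.05. The median is 0.37 in the origin recognition complex, 0.88 in the helicase ring and 1.17 in chromatin assembly and methylation upkeep, and Gins4 and Rpa3 lie at 0.

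Other genes of the pathway were listed by role, 44 in all, of which 43 were tested and 19 were higher and 0 lower (44.2% higher, against 5.11% of all genes; median 0.54). With DESeq2 23 and with limma voom 18 were higher and 0 lower, and 1 gene, Pold4, was lower at an unadjusted p under 0.05 in edgeR (-0.34 ± 0.14). Of 8 genes of nucleotide supply 7 rose (median 1.11), among them the ribonucleotide reductase subunit Rrm1 (1.08 ± 0.14, adjusted p = 9.52e-04), the serine hydroxymethyltransferase Shmt1 (1.80 ± 0.28, adjusted p = 0.00234) and Rrm2. Of 13 genes of fork protection, origin firing and checkpoint 6 rose, among them the fork protection gene Timeless (1.122 ± 0.17, adjusted p = 0.00188), its checkpoint partner Clspn (1.32 ± 0.25, adjusted p = 0.00694) and the helicase Recql4 (1.29 ± 0.25, adjusted p = 0.00862). Of 8 histone chaperones and topoisomerases 3 rose: Top2a (1.46), Rbbp7 (0.53) and Asf1b (0.54). Of 12 further subunits of the same complexes 2 rose, the alternative clamp loader subunits Chtf18 (0.92) and Atad5 (0.72). The counts of the pathway genes depended on the same libraries. Without LAIR1KO replicates 4 and 5, 8 of 43 were higher, against 1.68% of all genes. Without WT replicates 1 and 4 it was 10, against 1.89%.

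Genes of dividing cells and of marrow precursors were also higher in LAIR1KO. All 20 mitosis genes listed were called higher in LAIR1KO, as were 5.11% of all genes tested. Their summed level was 399 to 575 CPM in WT and 827 to 1482 CPM in LAIR1KO. Of 12 myeloid progenitor markers 10 were higher and 12 were detected, at 560 to 1445 CPM in WT and 3247 to 6950 CPM in LAIR1KO, with Mpo the most abundant at 518 and 3401 CPM. Replicates 4 and 5 were the 2 highest and replicate 3 the lowest LAIR1KO library for both lists and for the summed replication genes. Within WT the order differed: replicate 2 was highest and replicate 3 lowest for both lists, and replicate 5 was highest and replicate 1 lowest for the replication genes. Among the markers of nonclassical monocytes 0 of 12 passed in edgeR, DESeq2 or limma voom, and 2 were lower at an unadjusted p under 0.05 in edgeR. All 12 had log2 fold changes below 0 (median -0.25, from -1.03 to -0.13), and the most abundant, Csf1r, was at 5461 and 4738 CPM. Among the other lists, 6 of 10 neutrophil markers (1553 and 1623 CPM summed) and 1 of 6 early B cell markers tested (66.8 and 64.3 CPM) had fold changes above 0. Over all genes 1.68% were called lower in edgeR. Of 10 erythroid markers 4 were lower in edgeR, 5 in DESeq2 and 0 in limma voom, and WT replicate 2 held 1333 CPM of them against 119 to 352 in the other WT libraries and 77.7 to 176 in LAIR1KO. Of 9 resident macrophage markers tested 7 were lower (1831 and 937 CPM summed). Of the classical monocyte markers 2 of 6 tested were higher, and DESeq2 also called 1 lower. The most abundant, Ccr2, was at 648 and 423 CPM. The T and NK cell list, of which only Nkg7 was abundant enough to test, was at 12.0 and 29.0 CPM. Nkg7 was higher in edgeR (log2 fold change 1.35 ± 0.31, adjusted p = 0.0206), DESeq2 and limma voom. The part of any of these cell types in the difference of the replication genes was not tested.

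**Figure D5:**
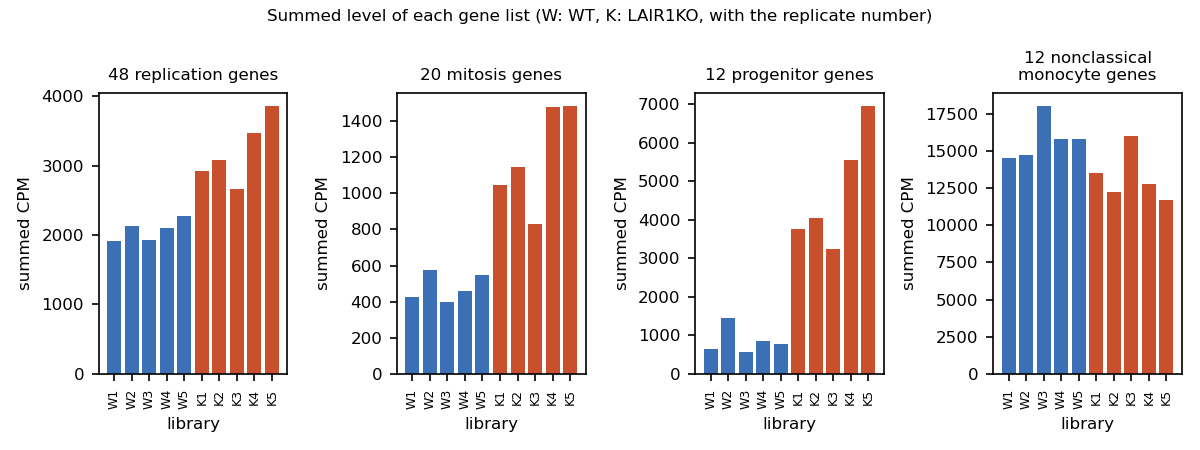
Summed CPM of 4 gene lists in each library (W is WT, K is LAIR1KO, with the replicate number). Replication, mitosis and progenitor genes are highest in LAIR1KO replicates 4 and 5 (3470 and 3854, 1477 and 1482, and 5542 and 6950 CPM), while nonclassical monocyte markers overlap between the groups.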

How the data were processed

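The authors deposited 1 table of raw read counts per Ensembl gene, with no normalization applied. Per the submitters' processing notes, the aligner was GSNAP and the build GRCm38.p5. The counting tool, annotation release, strand setting and handling of reads with several origins were not given in the sources used. Columns were assigned through the identifier in each sample title, which left 0 columns unassigned. Gene symbols, positions and exon lengths came from GENCODE M21 (GRCm38), which matched 52403 of 52636 identifiers, and promoter sequences from RefSeq (GRCm38.p6).

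The tools were edgeR 4.0.16 and R 4.3.3. The filterByExpr function (minimum count 10, minimum total 15, by group) was applied to the genes, which left 13469 genes and all 48 members. The member with the fewest counts, Orc1, had 17 in its lowest library, so none lay just outside the filter. Libraries were scaled with TMM, and the genotypes were tested by quasi-likelihood with no covariate, with p adjusted by the Benjamini-Hochberg method over all genes kept. The SE is the log2 fold change divided by the root of F. Chi-square per degree of freedom between replicates was 14.4 to 71.0, so none repeated another. The procedure was tested on simulated counts with 200 changed genes, drawn gene by gene from the fitted spread. That check does not cover differences that many genes of a library share.

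The members, their roles and the other lists were chosen with earlier results of these data known. Values in every library are given for the 12 members with the smallest p (1 WT value of Cdc45 only by its place), the helicase ring, the highest member per length and some others chosen after their values were seen (Orc1, Pole, Dnmt1). Other pathway genes were named by smallest p, up to 3 a list. Shared words and antisense overlaps were computed from GENCODE transcripts and exons. Alternatives were RLE scaling, library totals, no filter, 1 CPM in at least 5 libraries, DESeq2 1.42.0, limma voom (limma 3.58.1), the replicate number as a block, removal of the trends of each library with GC content and exon length, each library left out, and 2 pairs of libraries left out.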

Additional observations from a re-analysis of the deposited data

Results flagged for a closer look

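In 5 of 96 groups of 5 libraries (48 genes in 2 genotypes) 1 library stood apart from the other four by more than Dixon's critical value of 0.71 of the range on the log2 scale, and chance gives about 1 in 20. In LAIR1KO replicate 3 Orc1 stood at 2.98 CPM, with the others of its group at 5.496 to 6.31, and Rfc4 stood at 33.7 CPM, with the others at 41.0 to 43.8. In WT replicate 1 Chaf1a stood at 3.26 CPM, with the others at 9.29 to 12.9, and Rpa1 stood at 95.5 CPM, with the others at 114 to 121. In WT replicate 3 Mcm10 stood at 3.64 CPM, with the others at 10.5 to 16.2. All 5 were low values.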

How the results depend on the processing

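No member changed sign while called in any of the 20 alternative fits, and 0 members were called lower in any of them. Of the 31 members called, 9 passed in all 20 fits and 16 in all 10 fits with 1 library left out. Such counts were not made over all genes called. The number of members called higher was 16 to 31 in those 10 fits, 11 without LAIR1KO replicates 4 and 5, and 10 without WT replicates 1 and 4. In these 2 fits 8 and 10 further pathway genes were higher. These fits hold fewer libraries. Over all genes 914 changed, 688 higher and 226 lower. With 1 library left out the counts were 535 to 1170 changed, 422 to 789 higher and 113 to 381 lower. Without LAIR1KO replicates 4 and 5 they were 376, 236 and 140, and without WT replicates 1 and 4 they were 338, 266 and 72. Library totals gave 1379 changed (1243 higher, 136 lower) and moved the median of all genes from 0.00 to 0.13 and that of the members to 0.80. DESeq2 gave 1513 changed, 508 of them lower; the cause was not tested. The members' median was 0.55 without LAIR1KO replicates 4 and 5. The replicate numbers are shared between the groups, but same-numbered libraries did not deviate together (correlations -0.0697 to 0.0422). With the replicate block 600 genes changed, 122 of them lower, and 25 members were higher. Each member had 17 counts or more in every library.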

Other observations

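Of the MCM paralogues outside the replicative ring, Mcm8 was higher in LAIR1KO (5.89 ± 1.17 and 11.6 ± 2.88 CPM, SD, n = 5; log2 fold change 0.98 ± 0.21, edgeR adjusted p = 0.0138). Mcm9, with which MCM8 acts in recombination, was at 32.8 ± 6.56 and 32.2 ± 6.75 CPM (-0.03 ± 0.18, adjusted p = 0.956). Mcmdc2 was too scarce to test (0.513 and 0.360 CPM).

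Members with an E2F-type word in a promoter window and members without one both held called and uncalled genes. Of the 17 with a word 12 rose (median 0.78, from 0.24 to 1.31), and of the 23 without one 13 rose (median 0.58, from 0.00 to 1.49). The other 8 have no window in the table, and 6 of them rose. The difference between these groups of genes was not tested.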
